A study of Mus musculus with 2 samples.

Results

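The genes of the insulin-like growth factor (IGF) axis were followed through 2 single-cell RNA libraries of mouse skin wounds. The 10 genes were picked by symbol: the ligands Igf1 and Igf2, the receptors Igf1r and Igf2r, and the binding proteins Igfbp2, Igfbp3, Igfbp4, Igfbp5, Igfbp6 and Igfbp7. All 10 were found among the 31053 gene rows of both matrices. They were counted in 7944 of 12058 barcodes of the library labelled PBS and in 6613 of 11031 barcodes of the library labelled DTX, after a filter on genes and mitochondrial RNA and removal of likely doublets.

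IGF1 and IGF2 are secreted peptides that act through the tyrosine kinase receptor IGF1R. IGF2R, also called the cation-independent mannose 6-phosphate receptor, clears IGF2 and carries lysosomal enzymes. The secreted binding proteins hold the ligands in the extracellular space, lengthen or block their action and in part act without them. In skin, macrophages and dermal fibroblasts are known sources of IGF1, which is known to act on keratinocytes and fibroblasts during repair.

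Both samples are labelled Mrc1-DTR, a C57BL/6 mouse line in which the promoter of Mrc1, the gene of the mannose receptor CD206, drives a receptor for diphtheria toxin. Mice of 7 to 9 weeks received PBS or Diphtheria toxin, and 5 days after wounding the wound and skin of the back were taken with a 10 mm punch, from which live 7AAD-negative cells were sorted. According to the methods, each library pools 3 male mice, there were technical but no biological replicates, and the controls were wild-type mice given toxin, which is not what the labels say. The male-specific gene Ddx3y had 10322 and 6827 UMIs (unique molecular identifiers, each standing for 1 captured RNA molecule), and Xist, which marks female cells, had 6 and 5.

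The targeted gene differed in one direction over all cells and in the other within macrophage-like cells. Over all kept cells Mrc1 was at 65.4 CPM (UMIs scaled to a total of 1e6) in the library labelled PBS and at 268 CPM in the library labelled DTX. Over macrophage-like cells it was at 491 and 428 CPM, a log2 ratio of -0.20 (95% interval -0.25 to -0.15). Inside most subclusters of these cells (described below) that sign turned. The Mrc1 log2 ratio was 0.19 (0.09 to 0.28) in subcluster 0 and 0.57 (0.47 to 0.67) in subcluster 3. It was 0.05, 0.30 and 0.38 in subclusters 4, 5 and 6. In subclusters 1 and 2, with 38 and 7 PBS-labelled cells, it was 2.08 and -1.15. Macrophage-like cells made up 21.4% of the kept cells in the PBS-labelled library and 67.2% in the DTX-labelled one, whereas fibroblast-like cells made up 38.6% and 9.93%, and epithelial-like cells 26.0% and 3.55%. The higher level of Mrc1 over all cells thus went with more macrophage-like cells. The paper gives a cell number equal to the PBS-labelled barcodes to Mrc1-DTR wounds, and one equal to the DTX-labelled barcodes to controls. This is the reverse of the labels. It also describes a larger share of immune cells and fewer fibroblasts and epithelial cells in Mrc1-DTR wounds, the direction of the DTX label here. Every direction below follows the labels as deposited.

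With 1 library per label no test between conditions was possible. Levels were CPM from summed UMIs of a cell class with exact Poisson intervals. Ratios were log2 ratios of CPM + 1, DTX-labelled over PBS-labelled, with intervals. All intervals cover counting error only and not the spread between cells, mice or captures. For shares of cells in which a gene was seen, each cell was first thinned to 2000 UMIs, and cells with fewer UMIs were left out. This was done since the median depth of kept cells was 9579.5 UMIs in the PBS-labelled and 7286 in the DTX-labelled library. In macrophage-like cells it was 4712.5 and 6731 UMIs, the other way round. Since 1 UMI stands for 1 molecule whatever the length of the transcript, CPM were not divided by gene length. Of all barcodes 37 occurred in both libraries, and of the kept ones 13. The cell classes were compared, named from marker genes except cluster 8, which was led by class II histocompatibility genes and Cst3 and stayed unnamed.

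Most of the Igf1 RNA came from fibroblast-like and macrophage-like cells, and between the libraries it differed in opposite directions in these classes. In macrophage-like cells Igf1 was at 154 CPM (146 to 163, from 1284 UMIs) in the PBS-labelled library and at 18.4 CPM (16.9 to 20.0, from 565 UMIs) in the DTX-labelled one. This was a log2 ratio of -3.00 (-3.14 to -2.86), or 7.99-fold lower with the DTX label. In fibroblast-like cells Igf1 was at 203 CPM (199 to 208) and 279 CPM (269 to 290), a log2 ratio of 0.46 (0.39 to 0.52). Neither pair of intervals overlapped.

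Fibroblast-like cells held 82.6% of the Igf1 UMIs of the PBS-labelled library and 81.2% of those of the DTX-labelled one, and macrophage-like cells held 14.9% and 16.9%. These shares stayed close although the make-up of the libraries differed widely. Over all kept cells Igf1 was at 106 and 60.9 CPM, a log2 ratio of -0.79 (-0.85 to -0.73). The sign of the difference in level alone depended on the make-up it was weighted by. With the cell classes in the proportions of the PBS-labelled library the levels of the DTX-labelled one gave a log2 ratio of 0.21, and with the proportions of the DTX-labelled library the ratio was -1.04.

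In GRCm38, the build that mm10 stands for, Igf1 lies at chr10:87858265-87937042, Igf2 at chr7:142650766-142666816, Igf1r at chr7:67952827-68233668 and Igf2r at chr17:12682406-12769664. Igfbp2 and Igfbp5 are neighbours at chr1:72824503-72852474 and chr1:72857932-72874884. Igfbp3 lies at chr11:7206086-7213923, Igfbp4 at chr11:99041244-99054392, Igfbp6 at chr15:102144362-102149511 and Igfbp7 at chr5:77349240-77408041. The 250 bases before the start that RefSeq annotates are shown for Igf1 together with those of Igfbp4 and Igfbp6. The positions above are from GENCODE, and its starts differ in part. The Igf1 window lies inside the Igf1 span given above, not before it. The Igfbp6 window ends short of the Igfbp6 start given above, whereas the Igfbp4 window ends right before that of Igfbp4. These 3 members passed 2-fold in macrophage-like cells at levels above the number computed from fibroblast RNA (described below). Capitals mark matches on either strand to 5 short motifs. That of the ETS factors was searched for as GAGGAA. That of AP-1 was searched for as TGANTCA. The TATA box was spelled TATAAA. The GC box, which SP1 binds, was spelled GGGCGG. The motif of the C/EBP factors was spelled TTGCNNAA.
Igf1, chr10:87860861-87861110, plus strand: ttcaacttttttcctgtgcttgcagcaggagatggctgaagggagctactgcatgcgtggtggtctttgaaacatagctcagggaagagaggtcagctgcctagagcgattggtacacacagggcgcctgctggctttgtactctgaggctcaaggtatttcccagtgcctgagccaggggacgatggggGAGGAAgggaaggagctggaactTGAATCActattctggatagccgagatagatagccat
Igfbp4, chr11:99040994-99041243, plus strand: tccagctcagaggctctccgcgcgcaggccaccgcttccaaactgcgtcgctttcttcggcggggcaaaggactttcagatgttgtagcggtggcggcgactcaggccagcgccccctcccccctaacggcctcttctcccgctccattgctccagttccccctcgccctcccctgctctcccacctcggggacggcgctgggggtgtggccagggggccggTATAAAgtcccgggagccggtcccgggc
Igfbp6, chr15:102143936-102144185, plus strand: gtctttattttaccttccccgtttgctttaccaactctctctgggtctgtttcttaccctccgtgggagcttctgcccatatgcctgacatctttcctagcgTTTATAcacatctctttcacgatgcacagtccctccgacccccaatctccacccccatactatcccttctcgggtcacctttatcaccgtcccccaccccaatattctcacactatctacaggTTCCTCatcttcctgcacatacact

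The Igf1 window held the ETS motif at -60 and the AP-1 motif at -37, counted from the start that RefSeq annotates. The Igfbp4 window held the TATA box at -28, and the Igfbp6 window held the TATA box at -148 and the ETS motif at -25, both on the minus strand. Over 32851 RefSeq promoters of the same length, the ETS motif was found in 23.3%, the AP-1 motif in 6.75%, the TATA box in 12.4%, the GC box in 32.7% and the C/EBP motif in 9.56%. The GC box and the C/EBP motif had no match in these 3 windows, and the marked matches did not overlap each other. The G and C content was 52.8% for Igf1, 69.2% for Igfbp4 and 49.6% for Igfbp6. The matches are letters only and say nothing of binding in these cells.

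**Figure D1:**
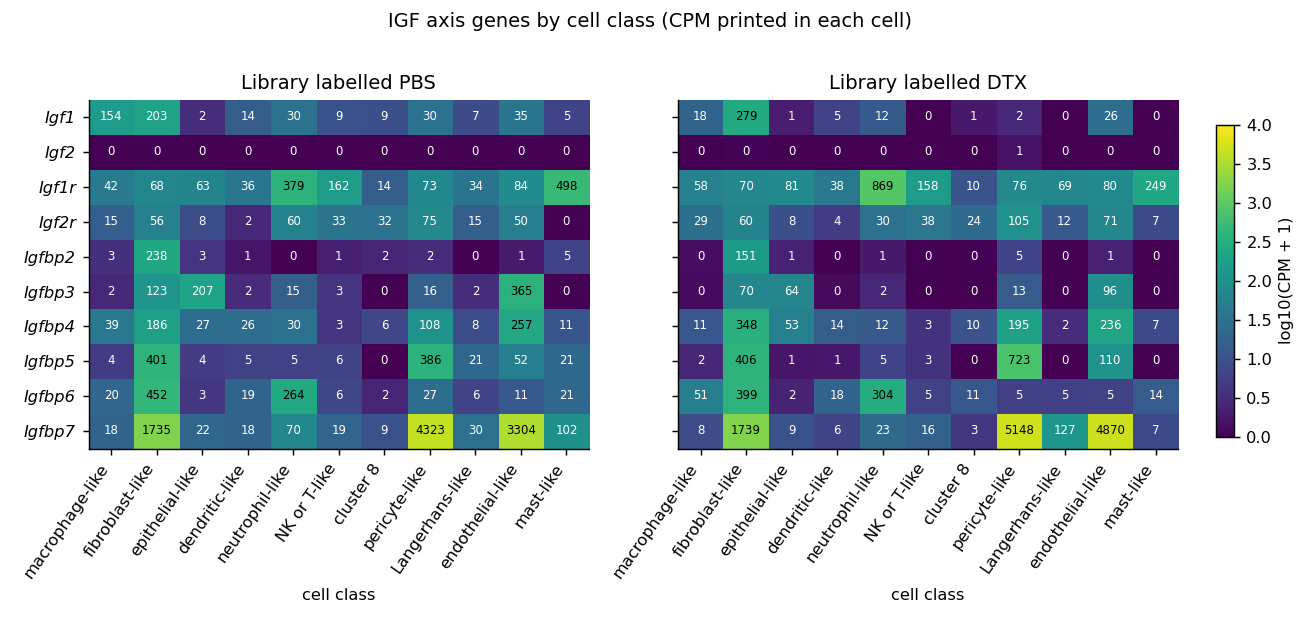
Level of each IGF axis gene (rows) in each cell class (columns) in the library labelled PBS (left) and the library labelled DTX (right), as CPM printed in the squares and colored by log10(CPM + 1). Igf1 reached 154 CPM in macrophage-like cells of the PBS-labelled library and 18.4 CPM in those of the DTX-labelled one, whereas Igfbp7 was at 1735 CPM or more in fibroblast-, pericyte- and endothelial-like cells of both.

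Igf2 was nearly absent. It had 3 UMIs in the kept cells of the PBS-labelled library and 4 in those of the DTX-labelled one, and 3 of these 7 were in the few myocyte-like cells. Igf2 is a strongly imprinted fetal growth factor with low expression in most adult tissues. In macrophage-like cells it had 0 UMIs in both libraries, and the limit that a count of 0 allows (3 counts) was 0.360 CPM in the PBS-labelled and 0.0978 CPM in the DTX-labelled library.

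In macrophage-like cells 7 of the 10 members had at least 50 UMIs, the minimum set for a fold. Igf1, Igfbp4 and Igfbp7 were at least 2-fold lower in the DTX-labelled library, and Igfbp6 was at least 2-fold higher. Of 10172 genes with as many UMIs in this class, 4.94% differed by 2-fold in either direction, 1.63% higher and 3.31% lower. The median log2 ratio of the 7 members was -0.97, beside 0.06 over all those genes. That median is the value of Igfbp5, which like Igfbp7 lay near the number computed from fibroblast RNA (described below). Of the others, Igf1 and Igfbp4 were lower with the DTX label and Igf1r, Igf2r and Igfbp6 higher.

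RNA of other cells was measured beside these values. A list of 10 fibroblast genes, collagens and others, summed to 964 CPM in macrophage-like cells of the PBS-labelled library and 202 CPM in those of the DTX-labelled one, a log2 ratio of -2.25, with no gene of the list at 0. The list was also lower with the DTX label in NK- or T-like cells (700 and 164 CPM) and in neutrophil-like cells (2604 and 473 CPM), classes that do not make collagen. The ratio of each member to this list in fibroblast-like cells gave the UMIs that carried-over fibroblast RNA would bring. For Igf1 in macrophage-like cells the observed UMIs were 78.2 times this number in the PBS-labelled library and 24.0 times in the DTX-labelled one.

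Igfbp4, Igfbp6, Igf1r and Igf2r also lay above that number in both libraries, from 4.52 times for Igfbp6 with the PBS label to 299 times for Igf1r with the DTX label. In NK- or T-like cells the same ratio was 6.43 and 0 for Igf1, from 15 and 0 UMIs. For Igfbp6 it was 1.93 and 5.55 there, from 10 and 7 UMIs. The 4.52 of Igfbp6 with the PBS label (3.85 to 5.26) lay above the 1.93 (0.92 to 3.54) of NK- or T-like cells of that library. It lay below the 5.55 of those of the DTX-labelled one. The part of carried-over RNA in the 4.52 was not tested. In macrophage-like cells Igfbp7, Igfbp5, Igfbp3 and Igfbp2 did not stand far from the number that fibroblast RNA would bring. Their ratios ran from 0.86 to 1.66. Igfbp7 was at 18.0 and 7.95 CPM in macrophage-like cells (log2 ratio -1.09), and was 1.07 and 1.66 times the number from fibroblast RNA. With that number subtracted the log2 ratio of Igfbp7 was 0.94, while that of Igf1 was -3.04. The 1.07 of Igfbp7 with the PBS label had an interval of 0.91 to 1.26, which includes 1. What is left of Igfbp7 there cannot be told from 0, so a turn of its sign was not shown.

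**Figure D2:**
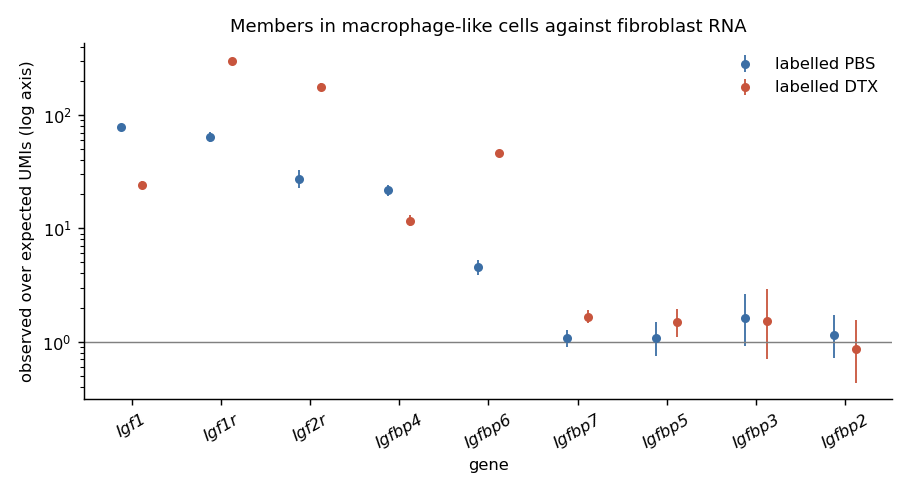
UMIs of 9 members in macrophage-like cells divided by the UMIs that the fibroblast RNA list would bring (log axis), by library, with 95% counting intervals. Igf1 lies at 78.2 in the PBS-labelled and 24.0 in the DTX-labelled library, whereas Igfbp7, Igfbp5, Igfbp3 and Igfbp2 lie between 0.86 and 1.66, near the line at 1.

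Igf1 was not spread evenly over macrophage-like cells. After thinning, 20.1% of them (18.1 to 22.2) had an Igf1 UMI in the PBS-labelled library and 2.70% (2.23 to 3.22) in the DTX-labelled one. NK- or T-like cells, which are not expected to make it, showed 2.28% and 0% (0 of 151, which allows a share of up to 1.99%) at median depths of 6534 and 8059 UMIs. The share in macrophage-like cells of the DTX-labelled library lay near that of NK- or T-like cells of the PBS-labelled one. It was higher than the 0% of NK- or T-like cells of its own library. The limit given for that 0% (3 counts) is narrower than the intervals of the other shares, so a clear separation was not shown. Before thinning the shares in macrophage-like cells were 29.8% and 5.63%.

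Subclusters of macrophage-like cells, built without the IGF genes, differed in Igf1. Subcluster 3 was unnamed and led by Ccl8, heat shock genes, Lpl, Igf1 itself and Selenop. Its Igf1 was at 374 CPM in the PBS-labelled and 149 CPM in the DTX-labelled library (log2 ratio -1.32, -1.52 to -1.12). Subcluster 0, unnamed and led by class II genes and the complement gene C1qa, had 88.8 and 38.1 CPM (-1.20, -1.51 to -0.90). In both, Igf1 was lower with the DTX label. These subclusters made up 84.0% of macrophage-like cells in the PBS-labelled library and 17.3% in the DTX-labelled one. C1qa was at 2585 and 2172 CPM in subcluster 3 and at 2121 and 1927 CPM in subcluster 0. Mrc1 was at 693 and 1029 CPM in subcluster 3 and at 439 and 500 CPM in subcluster 0.

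Most macrophage-like cells of the DTX-labelled library lay elsewhere. The Vcan-like subcluster 1, with monocyte genes, held 1201 of them and 38 of the PBS-labelled cells, and had 1.92 CPM of Igf1 with the DTX label. The Cd9-like subcluster 2, led by Arg1 and Cxcl3, held 1046 and 7 cells, and had 5.16 CPM. In the PBS-labelled library these subclusters had 0 Igf1 UMIs, which at 38 and 7 cells says little. In subcluster 4, unnamed and led by Il1r2, Igf1 was at 24.1 and 6.64 CPM, and in the Ccl7-like subcluster 5 at 47.0 and 15.3 CPM.

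The Ifit1-like subcluster 6, defined by interferon-induced genes, was the exception among subclusters with at least 50 cells in both libraries. Its Igf1 was at 37.1 and 44.8 CPM, with a log2 ratio of 0.27 (-0.67 to 1.28) that includes 0. Subcluster 7, led by the osteoclast-type genes Ctsk and Acp5, had 50 cells of the DTX-labelled library only, at 9.85 CPM. With the levels of the DTX-labelled library in the subcluster make-up of the PBS-labelled one, Igf1 came to 64.0 CPM, a log2 ratio of -1.26 to the PBS-labelled library. With the levels of the PBS-labelled library in the make-up of the DTX-labelled one, it came to 41.4 CPM, a log2 ratio of -1.87. Without subclusters 1, 2 and 7 the log2 ratio was -2.17.

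**Figure D3:**
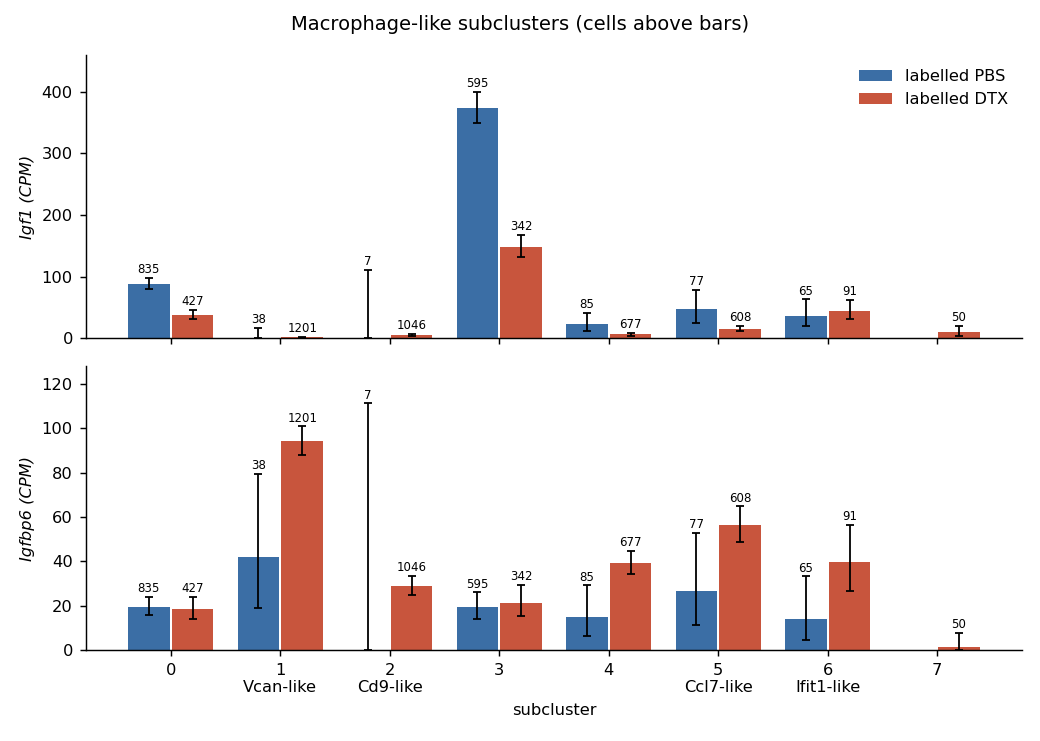
Igf1 (top) and Igfbp6 (bottom) in CPM in 8 subclusters of macrophage-like cells, by library, with 95% counting intervals and the number of cells above each bar. Igf1 is highest in subcluster 3 in both libraries (374 and 149 CPM). Igfbp6 is highest in the Vcan-like subcluster 1 with the DTX label (94.2 CPM). Its 41.8 CPM there with the PBS label (19.1 to 79.4) comes from 9 UMIs in 38 cells and overlaps other subclusters.

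Igf1 went with Mrc1 and C1qa within a library. Of thinned macrophage-like cells with an Mrc1 UMI, 26.1% (23.1 to 29.4) had an Igf1 UMI in the PBS-labelled library, against 13.5% (11.1 to 16.2) of those without. In the DTX-labelled library the shares were 4.42% (3.53 to 5.47) and 1.42% (0.988 to 1.96). Split by C1qa, a complement gene of tissue macrophages, they were 24.9% and 8.78% with the PBS label and 6.09% and 1.01% with the DTX label. Cells with the same split thus differed between libraries, and fewer Mrc1-positive cells of the DTX-labelled library had an Igf1 UMI than Mrc1-negative cells of the PBS-labelled one.

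Igfbp4, a binding protein that restrains IGF1 until the protease PAPP-A cleaves it, was also lower with the DTX label in macrophage-like cells. It was at 39.2 and 11.2 CPM, a log2 ratio of -1.71 (-1.92 to -1.50). Subcluster 3 again had the highest level among subclusters with at least 50 cells in both libraries, 80.7 and 51.6 CPM (-0.63, with an upper bound of -0.27), while subcluster 0 had 26.3 and 21.6 CPM (-0.27, -0.71 to 0.16). Cells with a C1qa UMI carried Igfbp4 in 9.07% and 4.55%, and cells without in 2.48% and 1.04%.

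Igfbp6, which prefers IGF2 as its ligand, ran the other way. In macrophage-like cells it was at 19.8 CPM (16.9 to 23.1) and 51.0 CPM (48.5 to 53.6), a log2 ratio of 1.32 (1.10 to 1.55). Thinned shares of cells with a UMI were 3.51% and 9.27%. NK- or T-like cells showed 0.457% and 0.662%, below both. The Vcan-like subcluster 1 had 94.2 CPM with the DTX label and held 53.1% of the Igfbp6 UMIs of that class.

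In the subclusters that made up most of the PBS-labelled macrophage-like cells the interval of the Igfbp6 ratio included 0. Subcluster 0 had 19.7 and 18.5 CPM (-0.08, -0.57 to 0.39), and subcluster 3 had 19.4 and 21.4 CPM (0.14, -0.49 to 0.77). In subcluster 4 the values were 14.8 and 39.3 CPM (1.35, 0.39 to 2.47), in the Ccl7-like subcluster 26.8 and 56.4 CPM (1.04, 0.06 to 2.21). Without subclusters 1, 2 and 7 the log2 ratio over the class was 0.91, under 2-fold.

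Igf2r was at 14.9 and 29.3 CPM in macrophage-like cells, a log2 ratio of 0.93 (0.67 to 1.19). Its subclusters disagreed. Subcluster 0 went from 9.21 to 34.3 CPM (1.79, 1.30 to 2.29), whereas subcluster 3 had 31.5 and 19.8 CPM (-0.65, -1.24 to -0.07). The osteoclast-type subcluster 7 had 97.05 CPM, the highest of the macrophage-like subclusters in the DTX-labelled library. Averaged over single cells the log2 ratio of the class was 1.27, past 2-fold.

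Igf1r, the receptor that carries the signal of IGF1, was highest in neutrophil-, mast- and NK- or T-like cells. It was found in every class but the myocyte-like cells, 7 and 11 in number, which had 0 UMIs. Macrophage-like cells had 42.2 and 57.9 CPM (0.45, 0.29 to 0.61). Inside their subclusters 0, 1, 2, 3, 4 and 5 the interval of the Igf1r ratio included 0. The ratio was 0.09 (-0.24 to 0.41) in subcluster 0 and 0.06 (-0.39 to 0.50) in subcluster 3. In subcluster 6, from 8 and 49 UMIs, it was 1.46 (0.40 to 2.68). Fibroblast-like cells had 68.0 and 70.4 CPM (0.05, -0.07 to 0.17), and epithelial-like cells 63.0 and 81.1 CPM (0.36, 0.18 to 0.53). NK- or T-like cells had 162 and 158 CPM (-0.04, -0.30 to 0.22). Mast-like cells, 34 and 19 in number, had 498 and 249 CPM, a fold of 2.00 (log2 interval -1.60 to -0.43). Of the genes with at least 50 UMIs in mast-like cells, 11.9% had a lower ratio. Langerhans-like cells, 122 and 37 in number, had 34.1 and 69.4 CPM from 43 and 29 UMIs. Their log2 ratio of 1.00 (0.29 to 1.70) just passed 2-fold, and 98.6% of such genes in that class had a lower ratio. For endothelial- and pericyte-like cells the intervals of the ratio included 0.

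Neutrophil-like cells had the largest Igf1r ratio among the classes with at least 50 UMIs of it. They had 379 CPM (299 to 475, from 76 UMIs) in the PBS-labelled library and 869 CPM (815 to 925, from 983 UMIs) in the DTX-labelled one, a log2 ratio of 1.19 (0.86 to 1.55), the only one of the 2 members with at least 50 UMIs there that passed 2-fold. In this class 5.77% of 2840 genes were 2-fold higher. Thinned to 1000 UMIs, 33 of 110 PBS-labelled and 229 of 455 DTX-labelled neutrophil-like cells had an Igf1r UMI. Their median depth was 1229 and 1920 UMIs, and the fibroblast and keratinocyte RNA lists were higher in the PBS-labelled cells (2604 and 473 CPM, and 2529 and 687 CPM). Their Igf1r UMIs were 213 and 1915 times those that fibroblast RNA would bring, and the part of keratinocyte RNA was not tested. With doublets left in, the log2 ratio was 0.79.

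Neutrophil-like cells numbered 130 and 459, and the class held 1.44% of the Igf1r UMIs of the PBS-labelled library and 22.4% of those of the DTX-labelled one. Macrophage-like cells held 6.65% and 40.4%, and fibroblast-like cells 45.1% and 15.6%. Of all UMIs, macrophage-like cells held 10.3% and 55.9%, fibroblast-like cells 43.1% and 17.7%, and neutrophil-like cells 0.247% and 2.06%. The Igf1r shares of macrophage- and fibroblast-like cells thus shifted with the make-up of the libraries. Fibroblast-like cells held most of the Igf1 RNA in both libraries. The largest share of Igf1r RNA was in fibroblast-like cells with the PBS label and in macrophage-like cells with the DTX label.

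In fibroblast-like cells 9 of 10 members had at least 50 UMIs and none passed 2-fold, beside 4.05% of 11814 genes in either direction. The median log2 ratio of the 9 was 0.02, beside 0.12 over all those genes. Of the 9 ratios 6 were above 0 and 3 were below, but when scaled by the median gene those of Igf1r, Igf2r, Igfbp5 and Igfbp7 also lay below 0, at -0.08, -0.04, -0.11 and -0.13. Igfbp7, known for binding IGF weakly and for its place in vascular basement membrane, was at 1735 and 1739 CPM (0.00, -0.02 to 0.03). Igfbp5, a matrix-bound binding protein, was at 401 and 406 CPM (0.02, -0.03 to 0.07).

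Igfbp3 and Igfbp2 were lower and Igfbp4 higher with the DTX label in these cells. Igfbp3, the main IGF carrier of the blood, was at 123 and 70.0 CPM (-0.80, -0.92 to -0.69). Igfbp2 was at 238 and 151 CPM (-0.65, -0.73 to -0.57). Igfbp4 was at 186 and 348 CPM (0.90, 0.84 to 0.96). Averaged over single cells the Igfbp4 ratio was 1.08, which would pass 2-fold. Igfbp6 was at 452 and 399 CPM (-0.18, -0.23 to -0.13). These ratios depended on the filter on cells. With a maximum of 2000 genes per cell, which left 534 and 62 fibroblast-like cells, Igfbp3 was at 0.20 and Igfbp6 at 0.35, so that both signs turned, and Igfbp2 was at -4.92. Igf2r and Igfbp5 turned as well, to -0.36 and -0.16, and Igfbp7 was at 0.36.

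**Figure D4:**
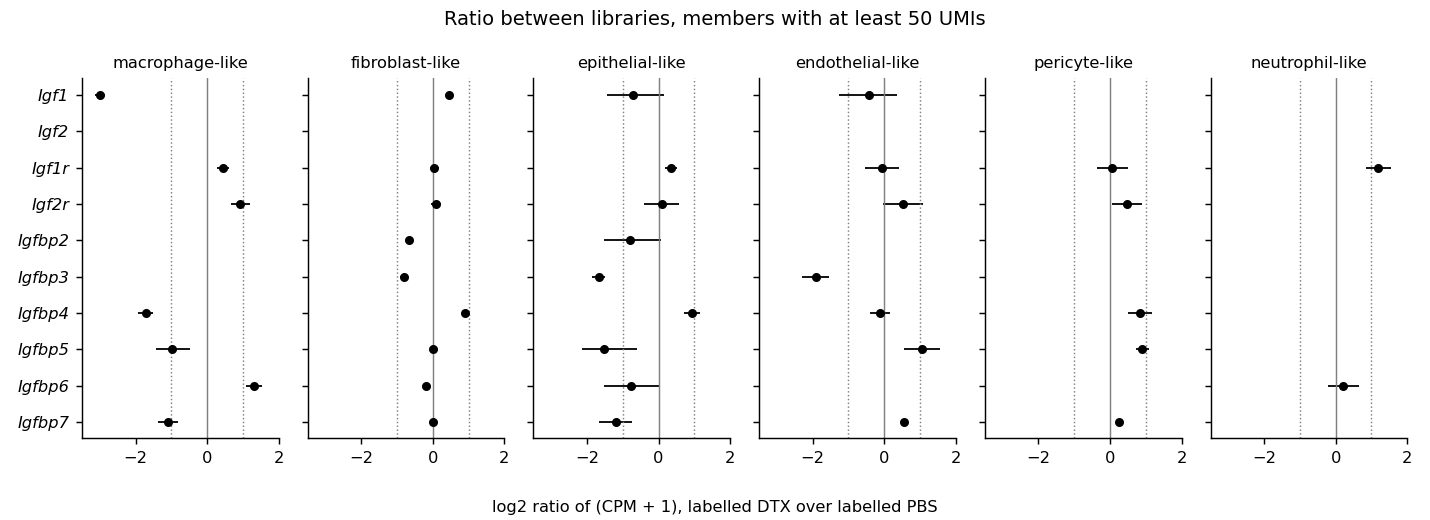
Log2 ratio of CPM + 1, DTX-labelled over PBS-labelled library, of the members with at least 50 UMIs in 6 cell classes, with 95% counting intervals. Dotted lines mark 2-fold. Igf1 lies at -3.00 in macrophage-like and at 0.46 in fibroblast-like cells, and no member passes 2-fold in fibroblast-like cells.

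Igfbp2 and Igfbp4 were highest in different large subclusters of fibroblast-like cells. Igfbp2 lay mostly in subcluster 1, unnamed and led by Igfbp2, Grem1 and Vcam1, with 693 CPM (PBS label) and 818 CPM (DTX label). Igfbp4 was at 6.47 and 0.747 CPM there. In the Plac8-like subcluster 0, with the matrix gene Mfap5 among its leading genes, Igfbp4 was at 461 and 522 CPM and Igfbp2 at 34.9 and 21.2 CPM. Subcluster 0 held 88.9% and 80.8% of the Igfbp4 UMIs of fibroblast-like cells, and subcluster 1 held 82.2% and 74.6% of those of Igfbp2. Subcluster 2, unnamed and led by Ctla2a and Gpx3, had little of either, 9.28 and 0 CPM of Igfbp2 and 3.83 and 2.60 CPM of Igfbp4. Both were present in subcluster 3, led by Coch and Fmod, where Igfbp2 was at 216 and 171 CPM and Igfbp4 at 108 and 194 CPM. They were also both present in the small subcluster 4, at 410 and 34.9 CPM and at 323 and 188 CPM.

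Igfbp2 and Igfbp4 were also counted cell by cell within the fibroblast-like class, without use of its subclusters. Of thinned fibroblast-like cells with an Igfbp2 UMI, 4.88% (2.55 to 8.37) also had an Igfbp4 UMI in the PBS-labelled library, against 14.2% (12.9 to 15.6) of cells without Igfbp2. In the DTX-labelled library it was 6.67% (1.40 to 18.3) against 26.6% (23.1 to 30.3). The product of the shares would give 33.1 and 11.4 cells with both, and 12 and 3 were found. Igfbp2 and Igfbp5, which lie tail to tail on chromosome 1 with 5457 bases between them, were found together more often. Igfbp5 was in 49.6% of Igfbp2-positive and 30.2% of Igfbp2-negative cells with the PBS label, and in 60.0% and 26.6% with the DTX label.

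Igf1 was in 35.2% of Igfbp4-positive and 26.6% of Igfbp4-negative fibroblast-like cells of the PBS-labelled library, and in 40.9% and 27.6% in the DTX-labelled one. In Igfbp2-positive cells it was in 13.8% and 11.1%, and in Igfbp2-negative cells in 29.0% and 32.4%. The receptor Igf1r had overlapping intervals in Igf1-positive and Igf1-negative cells, 13.0% (10.8 to 15.5) and 13.6% (12.2 to 15.1) with the PBS label. With the DTX label the shares were 14.9% (10.3 to 20.6) and 10.9% (8.18 to 14.2).

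Within subclusters the fibroblast Igf1 ratio was not uniform. In the Plac8-like subcluster 0 Igf1 was at 233 and 332 CPM (0.51, 0.43 to 0.60), and in subcluster 3 at 308 and 359 CPM (0.22, 0.06 to 0.38). In subcluster 1 it was at 144 and 99.4 CPM (-0.53, -0.80 to -0.28), and in subcluster 2 at 190 and 144 CPM (-0.39, -0.68 to -0.12). The Plac8-like subcluster made up 27.6% of fibroblast-like cells in the PBS-labelled library and 45.1% in the DTX-labelled one, and subcluster 1 made up 32.9% and 14.8%. Inside subcluster 0 the Igfbp4 ratio was 0.18 (0.11 to 0.24), beside 0.90 over the class. Inside subcluster 1 the Igfbp2 ratio was 0.24 (0.15 to 0.33), beside -0.65 over the class, so the sign of the summed counts turned. The DTX-labelled value came from 1094 UMIs in 97 cells. Single fibroblast-like cells of that library held up to 167 Igfbp2 UMIs, a spread between cells that the interval does not cover.

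Igfbp3 was lower with the DTX label in subclusters 1 and 2, from 126 to 80.7 CPM (-0.64) and from 214 to 72.8 CPM (-1.54, -1.95 to -1.16). In subcluster 0 it was at 61.7 and 58.2 CPM (-0.08, -0.28 to 0.11). Igfbp5 was higher in subcluster 3 (575 and 888 CPM, 0.63) and lower in subcluster 0 (368 and 250 CPM, -0.56). The small subcluster 4, of 44 and 45 cells, was led by Cd74 and Lyz2 and so carried myeloid RNA. Without it the class ratio of Igf1 was 0.48, that of Igfbp4 was 0.98, and no member passed 2-fold.

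**Figure D5:**
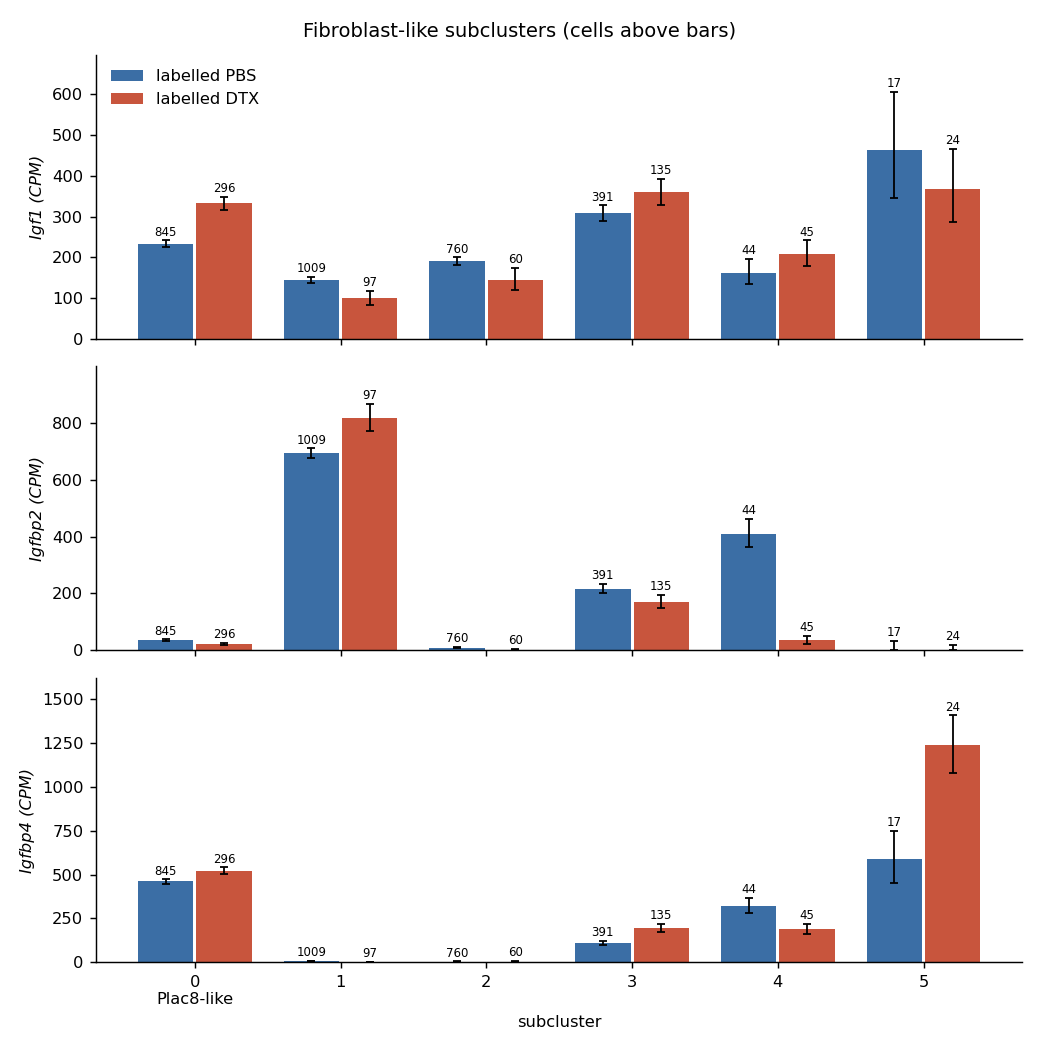
Igf1 (top), Igfbp2 (middle) and Igfbp4 (bottom) in CPM in 6 subclusters of fibroblast-like cells, by library, with 95% counting intervals and the number of cells above each bar. Igfbp2 is highest in subcluster 1 (693 and 818 CPM), where Igfbp4 is at 6.47 and 0.747 CPM, whereas in the Plac8-like subcluster 0 Igfbp2 is at 34.9 and 21.2 CPM and Igfbp4 at 461 and 522 CPM.

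Igfbp2 was unevenly spread over fibroblast-like cells. Fibroblast-like cells held 98.6% and 98.2% of its UMIs, yet only 8.21% and 7.38% of thinned fibroblast-like cells had one. The richest 10% of these cells held 99.1% and 99.5% of the UMIs. For Igfbp7 the same share was 26.6% and 31.7%, and 89.6% and 88.8% of thinned fibroblast-like cells had a UMI.

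In epithelial-like cells Igfbp3 was the leading member in the PBS-labelled library, at 207 CPM (202 to 213), and was at 64.1 CPM (56.4 to 72.6) in the DTX-labelled one, a log2 ratio of -1.68 (-1.86 to -1.50). Igfbp3, Igfbp5 and Igfbp7 of 9 members were at least 2-fold lower there, beside 2.07% of 10288 genes, but Igfbp5 was at 4.07 and 0.773 CPM and Igfbp7 at 21.7 and 9.02 CPM, and the fibroblast RNA list in the class went from 781 to 119 CPM. The UMIs of Igfbp5 in this class were 1.29 and 1.17 times those that fibroblast RNA would bring, and those of Igfbp7 1.59 and 3.20 times. With a maximum of 2000 genes per cell, which left 16 epithelial-like cells of the DTX-labelled library, the Igfbp3 ratio was -7.27. Igfbp3 lay mainly in cluster 3, with the keratins Krt1 and Krt10 among its leading genes, at 330 and 138 CPM (-1.25, -1.46 to -1.05), while cluster 4, led by Cst6 and Krt79, had 27.8 and 19.9 CPM (-0.46, -0.92 to -0.02). Igfbp4 was at 27.3 and 53.3 CPM over the class (0.94, 0.72 to 1.16), and at 60.5 and 85.9 CPM in cluster 4 (0.50, 0.26 to 0.73).

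The vessels carried most Igfbp7 per cell. Pericyte-like cells, 61 and 112 in number, had 4323 and 5148 CPM (0.25, 0.20 to 0.31), and endothelial-like cells, 73 and 55, had 3304 and 4870 CPM (0.56, 0.49 to 0.63). After thinning, 100% and 99.1% of pericyte-like cells had a UMI. Igfbp5 was at 386 and 723 CPM in pericyte-like cells (0.90, 0.73 to 1.08) and at 52.5 and 110 CPM in endothelial-like cells (1.06, 0.56 to 1.56). Igfbp4 was at 108 and 195 CPM in pericyte-like cells (0.84, 0.51 to 1.18) and at 258 and 236 CPM in endothelial-like cells (-0.13, -0.40 to 0.15).

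Igfbp3 in endothelial-like cells was at 365 and 96.0 CPM, a log2 ratio of -1.92 (-2.29 to -1.56). In endothelial-like cells Igfbp5 passed 2-fold upward and Igfbp3 downward, of 7 members with at least 50 UMIs, beside 4.47% of 4991 genes in either direction. Of 5 such members in pericyte-like cells none passed 2-fold, beside 4.33% of 5637 genes. The fibroblast RNA list was at 8168 and 4050 CPM in endothelial-like cells and at 27450 and 21103 CPM in pericyte-like cells, which express some of its genes themselves. Over all kept cells Igfbp3 went from 131 to 18.9 CPM (-2.73, -2.82 to -2.64).

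Igfbp6 was also found in neutrophil-like cells. They had 264 and 304 CPM (0.20, -0.22 to 0.64), which with doublets left in was -0.33. Shares of neutrophil-like cells with an Igfbp6 UMI, thinned to 1000 UMIs, were 24.5% and 26.4%, beside 1.34% and 0% of NK- or T-like cells, whose depth was greater. The UMIs were 22.3 and 118 times those from fibroblast RNA. The 37 Langerhans-like cells of the DTX-labelled library had 127 CPM of Igfbp7, against 30.2 CPM in 122 of the PBS-labelled one, and 11 pericyte and endothelial genes summed to 469 CPM there against 2.38. In dendritic-like cells Igf1 was at 13.9 and 5.20 CPM and Igfbp7 at 17.8 and 5.72 CPM, each 2-fold lower, beside 1.63% of 7114 genes, and the fibroblast RNA list was at 786 and 133 CPM. The Igf1 UMIs there were 8.66 and 10.3 times those that fibroblast RNA would bring, and those of Igfbp7 1.29 and 1.81 times. The interval of the 8.66 (6.19 to 11.8) overlapped that of the 6.43 of NK- or T-like cells (3.60 to 10.6) with the PBS label. With the DTX label NK- or T-like cells had 0 Igf1 UMIs. The part of RNA carried over in the dendritic-like Igf1 was not tested.

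Of 29 other genes of the IGF pathway (receptors, adaptors, proteases and targets), 15 had at least 50 UMIs in macrophage-like cells, 1 was 2-fold higher, none was 2-fold lower, and the median log2 ratio was 0.02. Over all 10172 genes with as many UMIs in this class 1.63% were 2-fold higher and 3.31% lower. The 1 pathway gene was Socs2, a feedback inhibitor of growth hormone and IGF signalling, at 11.5 and 24.4 CPM (1.02, 0.73 to 1.32). In fibroblast-like cells 24 had as many UMIs and none passed 2-fold, beside 4.05% of 11814 genes in either direction. The integrin genes Itgav and Itgb3, whose products bind IGF1, were at 168 and 170 CPM and at 53.3 and 48.3 CPM in fibroblast-like cells. In macrophage-like cells Itgav was at 113 and 135 CPM and Itgb3 at 4.44 and 6.16 CPM.

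Over all kept cells 9 members had at least 50 UMIs, and Igfbp2 and Igfbp3 were over 2-fold lower with the DTX label, beside 9.53% of 14439 genes. For several members the difference in make-up alone was as large. Igfbp5 went from 180 to 96.8 CPM (-0.89), but with PBS-labelled levels in DTX-labelled proportions the ratio from make-up alone was -1.04. For Igfbp7 the values were -0.65 and -0.76. For Igfbp3 make-up alone gave -1.56 of -2.73, and levels alone, in the PBS-labelled make-up, gave -1.26. In a sum over all cells, fewer cells of a type and less RNA per cell cannot be told apart.

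The genes with the level pattern most like each member were listed from 12142 genes over 19 combinations of class and library, which share 2 libraries and their make-up. Igf1 was most like Pdpn (Pearson r = 0.92), Selenop (0.87) and Tmem267 (0.84), and Igf1r most like Ypel3 (0.94), Heca (0.90) and Tra2a (0.90). The nearest gene was Cnpy4 for Igf2r (0.82), Wfdc12 for Igfbp2 (0.96), Dock1 for Igfbp4 (0.93), Bgn for Igfbp5 (0.96), C3 for Igfbp6 (0.91) and Ebf1 for Igfbp7 (0.99). Igf2, with 7 UMIs, gave no pattern to compare. Among members Igfbp5 and Igfbp7 were most alike (r = 0.94), and Igf1 and Igf1r were not (r = 0.10). These values describe the combinations and were not tested.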

How the data were processed

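Cells were captured with a Chromium Single Cell 3′ v3 kit. The authors ran Cell Ranger against mm10 (version 6.1.1 in the submitters' processing notes, 6.0.0 in the methods) and deposited raw UMI counts per gene and cell, without normalization. A cell was used if it had 500 genes or more and no more than 6% of its UMIs were mitochondrial. The methods also set a maximum of 2000 genes, which was tried only as an alternative. Doublets were scored with Scrublet in scanpy 1.11.5. Its own threshold removed 382 cells (4.59%) of the PBS-labelled library and called none of the DTX-labelled one, where the top 8.00% of scores (575 cells) were removed instead. Total UMIs of the kept cells were 81235634 and 54872675. Clustering used Seurat 5.3.0 in R 4.3.3 with 2000 variable genes less the IGF genes, 30 components and a resolution of 0.2, or 0.5 for macrophage-like subclusters.

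Classes were named from markers taken from the study and general knowledge. The members, gene lists, markers and the rule for naming clusters were chosen with earlier results of these data known. Named genes were all 10 members in each class compared, pathway genes with at least 200 UMIs and 2-fold in macrophage- or fibroblast-like cells, Itgav and Itgb3, and the 3 genes most like each member, of which 1 is not reported here and, for most members, only the nearest is given. The subclusters left out in 2 alternatives were chosen after their values were seen. The ratio calculation was tried on simulated Poisson counts with known folds. These had no spread between cells or libraries, and intervals were checked there without the added CPM, so this does not test the intervals for these data. Numbers were computed with scipy 1.17.1, pandas 2.3.3 and numpy 2.4.6, promoters came from RefSeq on GRCm38.p6 and gene positions from GENCODE on GRCm38. Intervals are 95% (Poisson, Clopper-Pearson, or binomial carried to the ratio), and cover counting error only.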

Additional observations from a re-analysis of the deposited data

How the results depend on the processing

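No paired analysis was possible because each label has 1 library. The lower Igf1 level of macrophage-like cells in the DTX-labelled library kept its direction under every alternative run. Its log2 ratio of -3.00 was -2.75 with up to 10% mitochondrial UMIs, -2.53 with 10 CPM added and -2.17 without subclusters 1, 2 and 7, an alternative chosen after seeing the data. The 4 members past 2-fold in macrophage-like cells were 2 without those subclusters. In fibroblast-like cells 1 member in place of 0 passed 2-fold both with a maximum of 2000 genes per cell (Igfbp2, -4.92) and with CPM averaged over single cells (Igfbp4, 1.08). That maximum also turned the fibroblast ratios of Igfbp3 and Igfbp6 to 0.20 and 0.35. It turned those of Igf2r and Igfbp5 to -0.36 and -0.16 and moved that of Igfbp7 to 0.36. Over all kept cells the Igf1 ratio of -0.79 was -2.75 with the limit of 2000 genes, -0.73 with up to 10% mitochondrial UMIs, -1.44 averaged over single cells and -0.71 with 10 CPM added. Thinned to 1000 UMIs, 12.9% and 1.5% of macrophage-like cells had an Igf1 UMI, where fewer molecules per cell are read. The ratio of Igfbp7 in macrophage-like cells was 0.94 with fibroblast RNA subtracted, from a PBS-labelled remainder that cannot be told from 0. Of 229 values for 23 other ratios, 168 lay within the counting interval of the main one, 13 had the other sign and 20 lay on the other side of 2-fold. The cause was not tested. With a limit of 2000 genes no pericyte- or endothelial-like class was found, so their ratios have no value there. Depth limits what the mast-, Langerhans-, endothelial- and pericyte-like classes and Igf2 can show.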
